A study of Arabidopsis thaliana with 15 samples.

Results

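The autophagy-related genes described here are the 8 genes on the array whose symbol begins with ATG and a digit and which have a probe set annotated to 1 gene. They are ATG8B (AT4G04620), ATG8C (AT1G62040), ATG8D (AT2G05630), ATG8E (AT2G45170), ATG8F (AT4G16520), ATG8G (AT3G60640), ATG8H (AT3G06420) and ATG3 (AT5G61500). They make up 8 of 16550 genes with such a probe set, among 38408 probe sets in all, of which 16722 carry 1 gene, 759 several genes and 20927 none. They were chosen by symbol, and the probe set with the highest mean was to stand for a gene. Each of the 8 has exactly 1 probe set annotated to 1 gene, so the mean decided nothing. The family was put forward with earlier results of these data known, so the counts below describe it and the list as a whole gets no test. All 8 were measured on every array and none was removed by a filter.

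Autophagy is the route by which cells enclose cytoplasm, organelles and protein aggregates in a double membrane and deliver them to the vacuole for breakdown and recycling. ATG8 is a small ubiquitin-like protein that is attached to the lipid phosphatidylethanolamine of the growing membrane, where it drives expansion and binds cargo receptors. ATG3 is the E2-like enzyme that makes this attachment. In plants the pathway is known for recycling nutrients during starvation and leaf senescence, and for a part in the cell death that completes xylem vessels. Arabidopsis has a family of ATG8 genes, of which ATG8H and ATG8I encode proteins that already end in the glycine that is conjugated.

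The samples were hypocotyls of Arabidopsis thaliana ecotype Col-0, kept in short days (8 h of light) for 6 weeks at 22 °C and then moved to long days (16 h of light), which induces flowering. Hypocotyls were collected on days 0, 1, 2, 4 and 10 after the move. Day 0 plants had seen short days alone, and the other days are all in long days, so no short-day plants of the same age as the later days are among the samples and time in long days cannot be told apart from age. Each day has 3 samples, each a pool of 8 plants, and each pool was hybridised to 1 array. The study is about abscisic acid in the differentiation of xylem fibres, and the time course asks which hypocotyl transcripts differ after the switch.

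The deposited values are normalised intensities, and the fit was made on their log2 with 1 mean per day over all 15 arrays (limma). P-values were adjusted over all 38408 probe sets by the Benjamini-Hochberg method, and a gene is called where the adjusted p is below 0.05. Each ± beside a log2 difference is its standard error, with n = 3 pools per day. Across all probe sets, pairs of arrays within a day had r from 0.983 to 0.990 and pairs from 2 days had r from 0.965 to 0.988. Pools within a day differed by a median SD of 0.18 (log2), and the small number of arrays sets the precision. Every pool is a separate set of plants, so a p-value here weighs a difference against pool-to-pool spread. In whole hypocotyls, more cells of a type and more RNA per cell cannot be told apart. The arrays measured transcripts, and neither ATG8 attachment nor autophagosomes were measured. ATG8 genes are close relatives, and whether a probe set also binds transcripts of a relative was not tested.

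All 8 genes ended the course higher than they began. On day 10 the log2 difference from day 0 lay between 0.37 for ATG3 and 0.76 for both ATG8D and ATG8E, with a median of 0.59 beside a median of 0.01 over all probe sets. On day 1 the median of the 8 was −0.03, on day 2 it was 0.12 and on day 4 it was 0.45, while the medians of all probe sets were 0.01, −0.01 and −0.03. The moderated F test called all 8 as changed over the 5 days, with adjusted p from 3.42e-06 for ATG8D to 0.00237 for ATG8G. That test called 41.5% of all probe sets. The first day called higher than day 0 was day 2 for ATG8B, ATG8D and ATG8G, day 4 for ATG8C, ATG8F and ATG8H, and day 10 for ATG3 and ATG8E. Whether courses differ between genes was not tested.

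**Figure D1:**
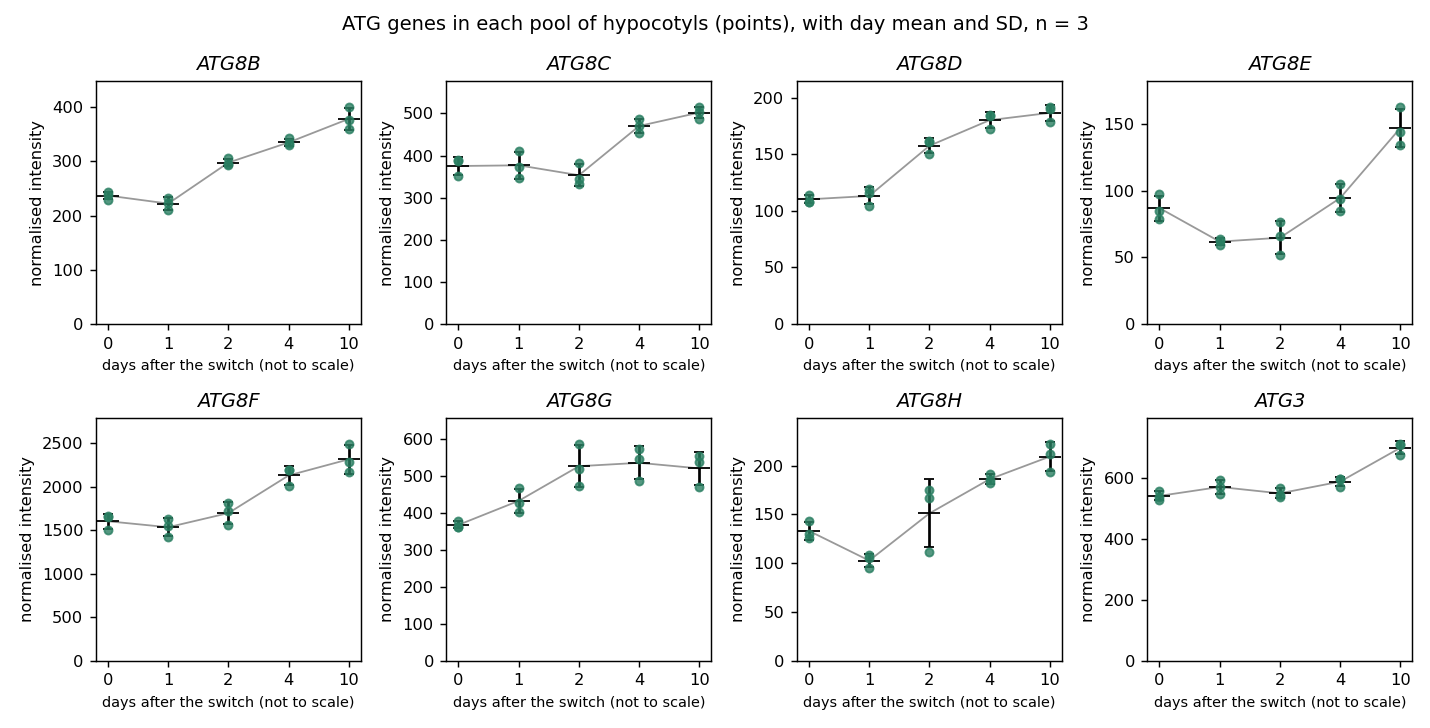
Normalised intensity (linear, from 0) of each ATG gene by days after the switch to long days, with a point per pool and the day mean ± SD (n = 3). The pools of day 10 lie above all pools of day 0 in each of the 8 panels, and the day 2 pools of ATG8H are spread from 111 to 175. The scale differs between panels, since levels of different probe sets cannot be compared.

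ATG8D and ATG8B were both called higher than day 0 on days 2, 4 and 10, with their highest means on day 10. ATG8D had intensities of 114, 108 and 108 on day 0, 119, 116 and 105 on day 1, 149.9, 161 and 161 on day 2, 184, 172 and 184 on day 4, and 189.7, 178 and 192 on day 10. The pools of days 0 and 1 overlap, those of day 2 lie above both, and those of day 4 lie above day 2, while days 4 and 10 overlap. On day 2 ATG8D was 1.43-fold above day 0 (log2 0.52 ± 0.07, adjusted p = 2.36e-04), on day 4 it was 1.64-fold above (0.71 ± 0.07, adjusted p = 1.44e-05) and on day 10 it was 1.69-fold above (0.76 ± 0.07, adjusted p = 4.06e-06). The step of day 4 over day 2 was 0.19 and did not pass (adjusted p = 0.123).

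ATG8B had 229, 243 and 238 on day 0, 210.0, 233 and 224 on day 1, 295, 293 and 306 on day 2, 342, 333 and 329.7 on day 4, and 400.3, 376 and 359 on day 10. The pools of days 0 and 1 overlap, and from day 2 onwards the pools of each day sampled lie wholly above those of the one before. Its log2 difference from day 0 was 0.33 ± 0.06 on day 2 (adjusted p = 0.00259), 0.50 ± 0.06 on day 4 (adjusted p = 1.06e-04) and 0.67 ± 0.06 on day 10, or 1.60-fold (adjusted p = 5.51e-06). Day 2 was called above day 1 (0.42, adjusted p = 9.96e-04), whereas day 4 over day 2 (0.17, adjusted p = 0.141) and day 10 over day 4 (0.18, adjusted p = 0.0740) were not.

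ATG8G was the gene whose highest mean came before day 10. It had 362, 378 and 362 on day 0, 467, 428 and 402 on day 1, 474, 587 and 517 on day 2, 486, 573 and 546 on day 4, and 553, 536 and 469.8 on day 10. All pools of the long days lie above all pools of day 0, and those of days 2, 4 and 10 overlap one another. ATG8G was 1.43-fold above day 0 on day 2 (0.51 ± 0.10, adjusted p = 0.00300), 1.45-fold on day 4 (0.54 ± 0.10, adjusted p = 0.00161) and 1.41-fold on day 10 (0.50 ± 0.10, adjusted p = 0.00210). The day 1 difference was 0.23 ± 0.10 and was not called (95% interval 0.02 to 0.45, adjusted p = 0.262). Day 10 minus day 4 was −0.04, with an interval from −0.26 to 0.17.

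ATG8F and ATG8C had like courses, with no call against day 0 through day 2 and higher values from day 4. ATG8F had 1505, 1659 and 1648 on day 0, 1627, 1428 and 1552 on day 1, 1556, 1723 and 1815 on day 2, 2005, 2191 and 2197 on day 4, and 2287, 2496 and 2169.7 on day 10. Pools of the first 3 days sampled overlap, and all pools of days 4 and 10 lie above them. ATG8F was 1.33-fold above day 0 on day 4 (0.41 ± 0.08, adjusted p = 0.00334) and 1.44-fold on day 10 (0.53 ± 0.08, adjusted p = 4.18e-04).

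The intensities of ATG8C were 350.3, 386 and 389 on day 0, 410.2, 347 and 373 on day 1, 332, 345 and 383 on day 2, 454, 487 and 469.9 on day 4, and 504, 488 and 515 on day 10. Here too days 0, 1 and 2 overlap, and the pools of day 10 lie just above those of day 4. ATG8C was 1.25-fold above day 0 on day 4 (0.33 ± 0.08, adjusted p = 0.00911) and 1.34-fold on day 10 (0.42 ± 0.08, adjusted p = 0.00143). On day 2 its difference from day 0 was −0.09, with an interval from −0.26 to 0.08. The step of day 4 over day 2 was called for ATG8C (0.41, adjusted p = 0.0105) and for ATG8F (0.33, adjusted p = 0.0414). The ATG8F call was lost in 12 of 21 alternative fits, at adjusted p up to 0.160, and the ATG8C call in 1 of them, at 0.0954 with the 6 arrays of these days alone.

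ATG8E had the widest swing of the 8 and dipped before it went up. It had 84.7, 97.2 and 78.8 on day 0, 63.8, 59.0 and 62.4 on day 1, 51.7, 66.1 and 76.3 on day 2, 84.7, 105 and 93.5 on day 4, and 163, 134 and 144 on day 10. All pools of days 1 and 2 lie below those of day 0, days 4 and 0 overlap, and day 10 lies above every other day. Its day 10 mean was 2.37-fold its day 1 mean. On day 10 it was 1.69-fold above day 0 (0.76 ± 0.14, adjusted p = 0.00116) and 1.56-fold above day 4 (0.64 ± 0.14, adjusted p = 0.00743). The dip was −0.49 ± 0.14 on day 1, which was not called (adjusted p = 0.0691), and −0.44 ± 0.14 on day 2, which was (adjusted p = 0.0412). The day 2 call lies near the threshold and was lost in 13 of 21 alternative fits. Among these were median centring (adjusted p = 0.0591), cyclic loess (0.0512) and the 6 arrays of these days alone (0.144). With day 2 replicate 1 left out the difference was −0.29 (adjusted p = 0.144). Leaving out day 0 replicate 2 gave an adjusted p of 0.152. ATG8E has the lowest mean of the 8, above that of 50.0% of all probe sets, and no detection calls were used.

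As with ATG8E, ATG8B and ATG8F, the lowest mean of ATG8H fell on day 1. Its pools had 143, 126 and 130.2 on day 0, 105, 95.0 and 108 on day 1, 111, 175 and 167 on day 2, 182, 192 and 185 on day 4, and 194, 212 and 222 on day 10. Day 1 lies wholly below day 0 and days 4 and 10 lie wholly above it, whereas on day 2 the 1 pool at 111 lies below day 0 and the other 2 lie above it. ATG8H was 1.40-fold above day 0 on day 4 (0.49 ± 0.14, adjusted p = 0.0238) and 1.57-fold on day 10 (0.65 ± 0.14, adjusted p = 0.00377). Its difference was −0.37 ± 0.14 on day 1 (adjusted p = 0.197) and 0.16 ± 0.14 on day 2 (adjusted p = 0.504), neither of them called.

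The pool at 111, day 2 replicate 1, was the lowest day 2 pool for 7 of the 8 genes, all but ATG8B. Several calls of ATG8H and ATG8E changed when it was left out. Without it the day 2 difference of ATG8H became 0.36 and was called (adjusted p = 0.0157). The ATG8H step of day 4 over day 2 then fell to 0.12, against 0.33 with all pools. The day 1 differences do not use this pool and stayed at −0.37 for ATG8H and −0.49 for ATG8E. Their standard errors draw on the spread of all days and fell to 0.08 and 0.11. Both were then called (adjusted p = 0.0182 and 0.0277). ATG8E was also called on day 1 without day 2 replicate 3 (adjusted p = 0.0454) and with dim probe sets left out (0.0472). The day 4 call of ATG8H was lost, at adjusted p up to 0.0798, when day 0 replicate 2, day 0 replicate 3 or any 1 pool of day 4 was left out.

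ATG3, the conjugating enzyme, had the smallest range. Its pools had 530.5, 538 and 559 on day 0, 571, 596 and 549 on day 1, 539, 544 and 569 on day 2, 571, 598 and 599 on day 4, and 677, 711 and 714 on day 10. The first 3 days sampled overlap and day 10 lies above all other days. ATG3 was 1.29-fold above day 0 on day 10 (0.37 ± 0.06, adjusted p = 3.38e-04) and 1.19-fold above day 4 (0.25 ± 0.06, adjusted p = 0.0100). Before that its differences from day 0 were 0.08 on day 1, 0.02 on day 2 and 0.12 on day 4, with intervals from −0.05 to 0.20, −0.10 to 0.15 and −0.00 to 0.24. On day 4 it was called once each array was centred on its median (0.20, adjusted p = 0.0290). The call of day 10 over day 4 was lost with the 6 arrays of these days alone (adjusted p = 0.0852).

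**Figure D2:**
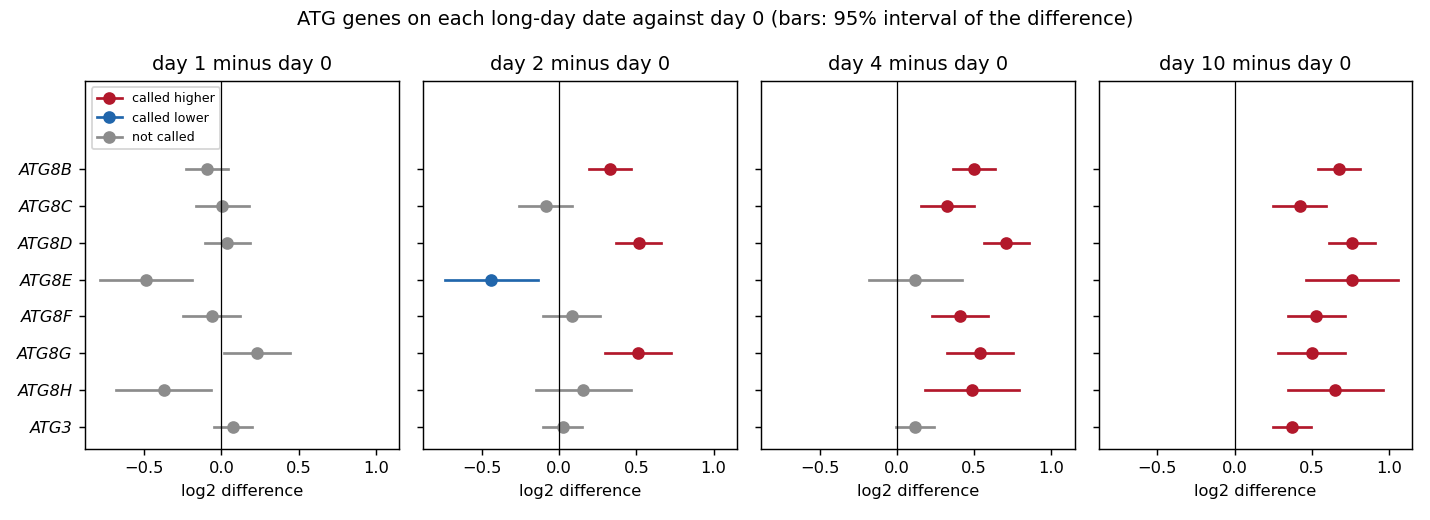
Log2 difference from day 0 of each ATG gene on days 1, 2, 4 and 10 (points) with its 95% interval (bars), coloured by whether the gene was called at an adjusted p below 0.05. None is called on day 1, 3 are higher and ATG8E is lower on day 2, 6 are higher on day 4 and all 8 are higher on day 10.

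Counted by day, 0 of 8 were called on day 1 against day 0 by limma, where 2.39% of all probe sets were called higher and 2.49% lower. Unadjusted, 3 of the 8 had p below 0.05 there, ATG8E, ATG8G and ATG8H, and the 8 split evenly into 4 differences above 0 and 4 below. On day 2 there were 3 called higher, ATG8B, ATG8D and ATG8G, and ATG8E was called lower, against 10.0% of all probe sets called higher and 10.3% called lower. On day 4, 6 of 8 were called higher and 0 lower, against 11.5% and 14.2% of all probe sets, and the 2 not called were ATG8E and ATG3. On day 10, 8 of 8 were called higher, against 14.8% of all probe sets called higher and 14.0% called lower. The pools of day 10 lay wholly above those of day 0 for 8 of 8 genes, as they did for 21.5% of all probe sets. Centring each array on its median moved the split over all probe sets to 2.98% higher and 2.01% lower on day 1. It moved to 13.6% and 8.03% on day 2, 16.0% and 10.4% on day 4, and 16.7% and 12.5% on day 10. All comparisons with day 0 share its 3 arrays, so their counts are not independent of one another.

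Between neighbouring days, 3 of 8 were called higher on day 2 against day 1, namely ATG8B, ATG8D and ATG8H, where 7.39% of all probe sets were called higher and 7.51% lower. The ATG8H call (0.53, adjusted p = 0.0249) was lost in 6 of 21 alternative fits, at up to 0.151. On day 4 against day 2 there were 3 as well, ATG8C, ATG8E and ATG8F, where 2.07% of all probe sets were called higher and 3.35% lower. The ATG8E step (0.56, adjusted p = 0.0366) was lost in 10 of 21 alternative fits, at up to 0.185. On day 10 against day 4 the 2 called higher were ATG8E and ATG3, where 9.41% of all probe sets were called higher and 7.70% lower, or 7.13% and 9.16% after median centring. ATG8E alone was called in 2 of the 3 steps, but a missing call is not a difference between genes. On day 4 against day 2 all 8 were above 0. ATG8H was at 0.33 there and not called (adjusted p = 0.210), while ATG8F was called at 0.33.

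The day-to-day courses of the 8 were compared by Pearson's r of their log2 values over the 15 arrays. These r values are a description, since the genes share arrays and their normalisation. All 28 pairs had r above 0, with a median of 0.77. The closest pair was ATG8B and ATG8D (0.95), followed by ATG8C and ATG8F (0.91). ATG8G stood farthest from the rest, at 0.29 with ATG8E, 0.44 with ATG3 and 0.47 with ATG8C, and closest to ATG8D at 0.84.

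**Figure D3:**
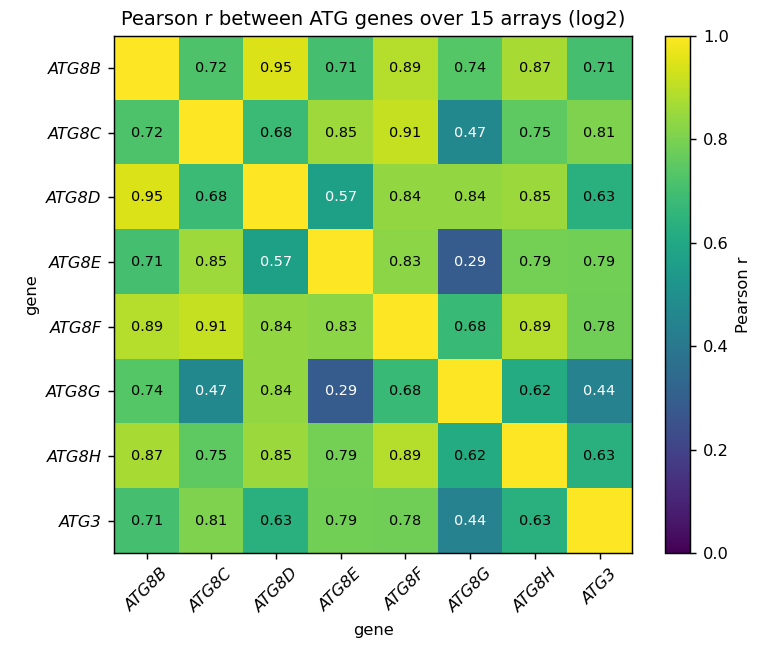
Pearson's r between the log2 values of each pair of ATG genes over the 15 arrays, from 0.29 (ATG8E and ATG8G) to 0.95 (ATG8B and ATG8D). The row of ATG8G holds the 3 lowest values.

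The other genes of the pathway come from a list of 51 autophagy genes, of which 21 were matched by locus to a probe set with 1 gene. Of these, 13 are not among the 8. On day 1, 0 of the 13 were called by limma, and 1, SH3P2, had an unadjusted p below 0.05. On day 2, 2 were called higher and 3 lower, against 10.0% and 10.3% of all probe sets. The 3 lower became 1 without day 2 replicate 1 and with the 6 arrays alone. On day 4 there were 3 higher and 1 lower, against 11.5% and 14.2%, and the 3 higher became 6 after median centring. On day 10 there were 8 higher and 1 lower, against 14.8% and 14.0%, with a median of 0.32. The 8 higher ran from 5, without day 10 replicate 2, to 9 over the alternative fits, and the 1 lower was 0 in 4 of them. The PI3P effectors and ATG9, and the conjugation genes ATG4, ATG5, ATG7, ATG10 and ATG12, are not analysed here.

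The other ATG8 genes are ATG8A (AT4G21980) and ATG8I (AT3G15580), which the array annotation gives under older APG8 symbols. ATG8A is named after its values were seen. ATG8A had 98.5, 93.0 and 79.8 on day 0, 77.4, 88.8 and 74.5 on day 1, 122, 138 and 159 on day 2, 139, 174 and 156 on day 4, and 123, 116 and 114 on day 10. ATG8I had 670.4, 692 and 682 on day 0, 719, 609 and 645 on day 1, 881, 981 and 1014 on day 2, 1051, 1162 and 1118 on day 4, and 969, 847 and 882 on day 10. In both genes the pools of days 2, 4 and 10 lie above those of day 0, and those of day 10 lie below those of day 4.

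The day 4 difference from day 0 was 0.79 ± 0.12 for ATG8A (adjusted p = 4.38e-04) and 0.70 ± 0.08 for ATG8I (adjusted p = 7.02e-05). On day 10 it was 0.38 ± 0.12 for ATG8A (adjusted p = 0.0296) and 0.40 ± 0.08 for ATG8I (adjusted p = 0.00283). Day 10 was called below day 4 by 0.41 for ATG8A (adjusted p = 0.0345) and by 0.31 for ATG8I (adjusted p = 0.0236). These 2 falls were lost in 6 and 5 of 21 alternative fits, at adjusted p up to 0.118 and 0.0881, and the day 10 call of ATG8A in 5, at up to 0.121. With both included, 9 of 9 ATG8 genes were called higher on day 10, against 14.8% of all probe sets. On day 4 there were 8, against 11.5%. On day 2 there were 5, against 10.0%, beside ATG8E lower, against 10.3%.

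Of the ATG1 kinase complex, which starts autophagosome formation, 6 of 8 listed genes were matched and 4 were called higher on day 10, with 0 lower, against 14.8% and 14.0% of all probe sets. ATG1t, a truncated ATG1 kinase, had 236, 251 and 223 on day 10, against 160.3, 176 and 161 on day 0 (0.51 ± 0.08, adjusted p = 4.49e-04), with day 4 at 0.10 and not called. ATG13b, the regulatory subunit, was higher on day 4 (0.46 ± 0.09, adjusted p = 0.00305) and on day 10 (0.49 ± 0.09, adjusted p = 0.00155). ATG1c was higher on day 10 (0.26 ± 0.06, adjusted p = 0.00561), but was not called when the 6 arrays of these days were fitted alone (0.0572). ATG101 was at 0.26 on day 10 and was not called (adjusted p = 0.0594). The 4th gene called was ATG1b (0.32, adjusted p = 0.0271), named after its values were seen. Its call was lost in 5 of 21 alternative fits, at up to 0.114, among them the fit without day 10 replicate 2.

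ATG14b, a subunit of the lipid kinase complex of autophagy, was the 1 of 5 listed genes matched and was higher on day 10 (0.39 ± 0.07, adjusted p = 0.00165). ATG16, which with ATG5 and ATG12 places the conjugation on the membrane, was higher on day 10 (0.49 ± 0.15, adjusted p = 0.0235), a call lost in 4 of 21 alternative fits, at up to 0.0828. Of 10 listed receptors and adaptors 3 were matched, and all 3 were called lower on day 2, against 10.3% of all probe sets. On day 10 their median log2 difference from day 0 was 0.10, with 1 called lower, against 14.0%. DSK2A, a ubiquitin-binding receptor, was lower on day 2 (−0.25 ± 0.06, adjusted p = 0.00900), day 4 (−0.31 ± 0.06, adjusted p = 0.00162) and day 10 (−0.20 ± 0.06, adjusted p = 0.0182). The day 2 call was lost with the 6 arrays alone (0.0615). The day 10 call was lost in 4 alternative fits, at up to 0.105: median centring, the 6 arrays alone, and without day 0 replicate 2 or day 10 replicate 1. Its relative DSK2B (−0.19, adjusted p = 0.0360) and SH3P2, a membrane-binding protein that interacts with ATG8 (−0.42, adjusted p = 0.0171), were lower on day 2 and not called on days 4 and 10. The DSK2B call was lost in 8 of 21 alternative fits, at up to 0.187, and the SH3P2 call without day 2 replicate 1 (0.0628).

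**Figure D4:**
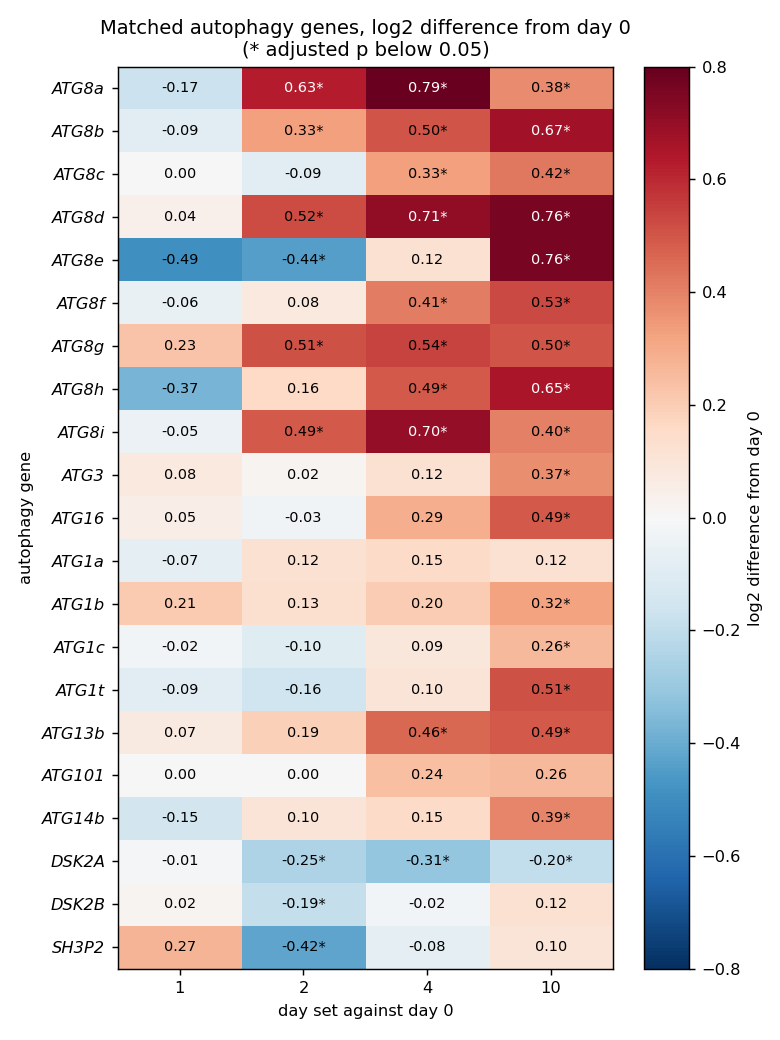
Log2 difference from day 0 on days 1, 2, 4 and 10 for the 21 matched autophagy genes, with * for an adjusted p below 0.05. The day 10 column holds 16 genes called higher and DSK2A called lower, and ATG8A and ATG8I have their highest difference in the day 4 column.

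Markers of tissues that a hypocotyl pool can hold moved in the same samples. Of 6 markers of green leaf tissue 3 were matched, RCA, PRK and LHCB4.1, and all 3 were lower on days 4 and 10. Their summed intensity was 803 to 836 on day 10 and 1124 to 1263 on day 4, against 1821 to 2021 on day 0. The xylan synthase gene IRX10, the 1 matched of 7 xylem and secondary wall markers, had 2249 to 2468 on day 10 and 1259 to 1323 on day 4, against 671 to 757 on day 0. The 2 matched of 5 root hair markers, EXPA7 and EXPA18, had sums of 36.5 to 50.1 over all arrays and were not called. No marker of inflorescences was matched, and with no list of markers particular to hypocotyls the labelled tissue itself was not checked. Over the 15 arrays the mean of the 8 ATG genes, each centred on its own mean, had r = 0.96 with IRX10. With the green tissue markers r was −0.93 for RCA, −0.85 for PRK and −0.70 for LHCB4.1. The part of a change in tissue composition in the ATG values was not tested.

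Genes whose course was most like that mean were ranked by r over the 15 arrays among 16542 other genes. The 6 highest were AT5G47530 (0.985), AT1G55760 (0.984), BSH (0.983), a subunit of SWI/SNF chromatin remodelling complexes, GAMMA-VPE (0.982), a cysteine protease of the vacuole, AT5G59530 (0.981) and AT4G26060 (0.978). On day 10 the log2 difference from day 0 was 1.30 for AT5G47530, 1.04 for AT1G55760, 0.76 for BSH, 1.22 for GAMMA-VPE, 1.89 for AT5G59530 and 0.71 for AT4G26060. For single genes, the closest were AT1G62290 for ATG8D (0.986), AT1G32190 for ATG8B (0.979), AT1G32700 for ATG8E (0.975), AT4G14000 for ATG3 (0.972), GAMMA-VPE for ATG8F (0.970), AT1G28260 for ATG8H (0.965), SHI for ATG8C (0.947) and AT5G04440 for ATG8G (0.935). With the same days and pools behind every gene, a high r describes a shared course on these arrays.

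**Figure D5:**
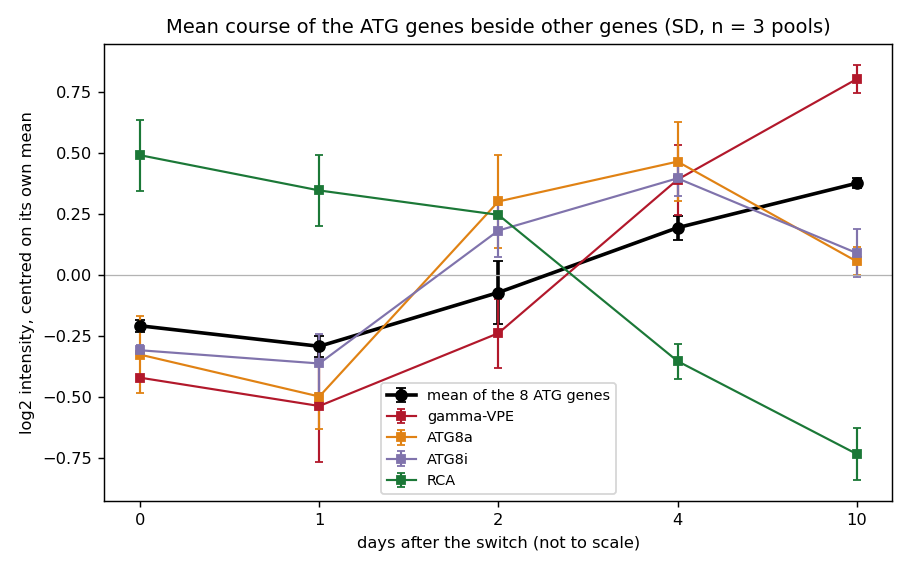
Log2 intensity centred on each gene's own mean over the course, by days after the switch, as the day mean ± SD (n = 3 pools), for the mean of the 8 ATG genes and for gamma-VPE, ATG8A, ATG8I and RCA. The ATG mean is −0.21 on day 0, −0.29 on day 1, −0.07 on day 2, 0.19 on day 4 and 0.38 on day 10, ATG8A and ATG8I peak on day 4, and RCA runs downwards.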

How the data were processed

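Total RNA of 15 hypocotyl pools was hybridised to arrays. The authors deposited 1 table of normalised intensity values. Per the submitters' processing notes, RMA and Partek were used. The sources used here state neither a version nor a role for them. The deposited intensity values were taken to log2 with no further scaling and no filter. The fit used limma 3.58.1 under R 4.3.3 (lmFit, eBayes, two-sided tests, Benjamini-Hochberg adjustment over 38408 probe sets, 10 residual degrees of freedom). Plots were made with Python 3.11.15 and matplotlib 3.10.9. The members and gene lists were chosen with earlier results of these data known. All members are named, up to 4 genes per list by smallest F test p, and the genes of highest r. Probe sets were named from the platform annotation and loci from the TAIR10.1 gene table. No build is given for the array annotation, so no positions are printed. Alternatives were median centring, cyclic loess, the replicate number as a block, dim probe sets left out, an intensity trend with a robust prior, only the 6 arrays compared, and each pool left out.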

Additional observations from a re-analysis of the deposited data

How the results depend on the processing

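Of 56 comparisons of an ATG gene between days, 26 were called. Of these calls, 19 held in every alternative fit run and 7 were lost in at least 1, while 6 of the 30 comparisons not called were called in at least 1. No called difference changed sign. All 8 genes were called on day 10 against day 0 and over the 5 days in every alternative fit run. The count of 0 on day 1 against day 0 became 1 with dim probe sets left out, and 0 to 2 with a pool left out. On day 2 against day 0 the count of 4 was 3 to 4 and on day 4 against day 0 the count of 6 was 5 to 7. On day 2 against day 1 the count of 3 was 2 to 4. For day 4 against day 2 the count of 3 fell to 1 with the replicate block, to 0 with the 6 arrays of these days alone, where ATG8C was at adjusted p = 0.0954, and to 1 to 3 with a pool left out. For day 10 against day 4 the count of 2 became 1 with the 6 arrays alone and 3 with dim probe sets left out, where ATG8B was called (adjusted p = 0.0436). Under the replicate block ATG8E on day 2 against day 0 was at adjusted p = 0.0620. The labels give a replicate number and do not say whether it pairs the pools. Residuals of same-numbered arrays correlated at −0.16 to 0.12 (30 pairs) and those of other arrays at −0.14 to 0.15 (60 pairs). These ranges show no sign of pairing, but with 3 arrays per day they cannot exclude shared handling. The cause of the shifts in calls between fits was not tested. Each gene has 1 probe set annotated to it alone, so no other of that kind could be tried. Probe sets annotated to several genes were not searched for these genes.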

Other observations

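Genes that act before and after autophagosome formation were described from the same lists. Of 8 vacuolar proteases, 4 were matched. Gamma-VPE, a vacuolar processing enzyme, had 6568, 7103 and 6700.3 on day 10 and 4615, 5627 and 5118 on day 4, against 2907, 2923 and 2899 on day 0 (log2 1.22 ± 0.11, adjusted p = 6.26e-06 on day 10). CATHB3, a cathepsin B-like protease, was higher on day 2 (0.45), day 4 (0.76) and day 10 (0.33), and day 10 was below day 4 by 0.42 (adjusted p = 0.00209). Beta-VPE was lower on day 10 (−0.46, adjusted p = 6.55e-04), and alpha-VPE was not called on any day.

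Of 10 listed genes of the TOR and SnRK1 kinases, which restrain and promote autophagy, 5 were matched. AKINBETA1, a beta subunit of SnRK1, was lower on day 1 (−0.53 ± 0.09, adjusted p = 0.00384), day 2 (−0.59) and day 4 (−0.74), and on day 10 it was at −0.14 (adjusted p = 0.297). RAPTOR1A and RAPTOR1B are TOR partners. RAPTOR1A was at −0.18 on day 10 (adjusted p = 0.119) and was not called against day 0 on any day. RAPTOR1B was higher on day 10 (0.20, adjusted p = 0.0330), a call lost in 7 of 21 alternative fits, at up to 0.113. AKINBETA2, another beta subunit, was at −0.25 on day 2 (adjusted p = 0.0713) and at 0.06 on day 10, and was not called against day 0. The 1 matched of 11 dark- and starvation-induced genes, AT3G15450, fell by 3.16 on day 1 and by 3.80 on day 10 on the log2 scale, and was called lower on all 4 long-day dates. WRKY6, the 1 matched of 11 senescence genes, was higher on day 2 (0.43) and day 10 (0.33). It was not called on day 1 (0.31) or day 4 (0.03). The day 10 call was lost in 4 alternative fits, at adjusted p up to 0.0941. None of the 7 listed genes of xylem cell death was matched, and they are not analysed here.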
